A study of Homo sapiens with 24 samples.

Results

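22Rv1 and LNCaP:C4-2 cells were compared without androgen. The comparison rested on the 6 libraries that received a non-targeting siRNA pool (siSCR) and vehicle, 3 of 22Rv1 and 3 of LNCaP:C4-2, out of 24 RNA-seq libraries of the experiment. Members were chosen from the sample labels alone, and the 546 genes on chromosome Y were left out, so that 60129 genes remained. The cells of all 6 libraries were transfected with siSCR, kept for 48 h, transfected again and given ethanol for 72 h in medium with charcoal-stripped serum, which is low in steroids. The other 18 libraries carried siRNAs against METTL3 (siMETTL3), the androgen R1881 at 1 nM, or both. They served to look at the same genes in other libraries, to pick androgen-regulated genes, to compare the line difference with and without R1881, and in an alternative fit.

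Both are prostate cancer cell lines that grow without testicular androgen. LNCaP:C4-2 descends from LNCaP, a line grown from a lymph node metastasis and is sensitive to the antiandrogen enzalutamide. 22Rv1 descends from a xenograft that relapsed after castration and is resistant to enzalutamide. Androgen drives the secretory genes of luminal prostate cells, the kallikreins among them, and tumours that grow without it often take up neuronal or gut-like gene programs. Each line is a single lineage from a single tumour, so what is peculiar to a line, to its tumour of origin or to its time in culture cannot be told apart here. Neither the labels nor the methods say that replicates were separate cultures, and p-values measure only the spread between these libraries.

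Levels are fragments scaled to exon length and to library size (FPKM), computed from the deposited counts with library totals adjusted by the TMM method, so that levels can be compared between genes. Pairs of values are given as 22Rv1 against LNCaP:C4-2, and differences are log2 values of 22Rv1 minus LNCaP:C4-2 with their standard error (SE). A gene was called when its Benjamini-Hochberg adjusted p from the quasi-likelihood test of edgeR lay under 0.05 and its fold change reached 1.5. Totals ran from 17060909 to 17299704 counts in 22Rv1 and from 17642911 to 18894296 in LNCaP:C4-2. Libraries of a line correlated at 0.988 to 0.993 on the log2 scale and libraries of different lines at 0.761 to 0.772. Mitochondrial genes took 6.12% to 6.90% of counts in 22Rv1 and 8.02% to 8.48% in LNCaP:C4-2.

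Both lines carried markers of luminal prostate cells, at levels that often differed. The keratin KRT8 was at 48.9 ± 4.98 against 47.5 ± 4.05 FPKM, the adhesion protein EPCAM at 41.2 ± 0.587 against 54.5 ± 1.055 FPKM and the pioneer factor FOXA1, which opens chromatin for steroid receptors, at 112 ± 5.85 against 150.00 ± 3.31 FPKM, and none of the 3 was called. Among 16 luminal markers listed and tested, 6 were called higher in 22Rv1 (37.5%, against 32.1% of all genes). A further 5 were called higher in LNCaP:C4-2 (31.25%, against 27.2%). A set of 9 luminal markers summed to between 387.3 and 422.4 FPKM in 22Rv1 and between 571.0 and 604.5 FPKM in LNCaP:C4-2. The defining markers of basal cells were at or near the floor, with KRT5 and KRT14 at 0 counts in every library except 1 count of KRT14 in a single LNCaP:C4-2 library and TP63 at 4 counts at most. Of 12 basal markers listed, 5 passed the filter and all 5 were called, DST (2.48 against 0.461 FPKM), LAMB3 (1.97 against 0.0855 FPKM) and CAV1 (1.45 against 0.103 FPKM) higher in 22Rv1 and the integrins ITGA6 (0.664 against 5.72 FPKM) and ITGB4 (0.344 against 1.81 FPKM) higher in LNCaP:C4-2. Of 18 markers of stroma, endothelium and blood, 10 in 22Rv1 and 11 in LNCaP:C4-2 stayed at 3 counts or fewer in every library, and their sum ran from 4.65 to 5.62 FPKM and from 5.29 to 7.57 FPKM. Most of that sum was the collagen gene COL1A1 (2.70 against 5.395 FPKM), while COL1A2 and DCN had 1 count at most.

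A pair of genes bears on the identity of the LNCaP:C4-2 libraries. LNCaP cells are known for a rearranged and active ETV1 gene and for the long noncoding RNA PCGEM1. ETV1 had 1419, 1371 and 1653 counts in 22Rv1 and 1, 4 and 1 counts in LNCaP:C4-2, and over all 12 LNCaP:C4-2 libraries they ran from 0 to 4 against 907 to 1985 over the 12 of 22Rv1. PCGEM1 was at 0 to 3 counts in the LNCaP:C4-2 libraries and at 0 or 1 in those of 22Rv1. The libraries labelled LNCaP:C4-2 did respond to R1881 at classical targets, with KLK3 between 274 and 402 counts in the siSCR vehicle libraries and between 4886 and 6247 with siSCR and R1881. Why ETV1 and PCGEM1 were absent was not tested.

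The siSCR pool does not target METTL3, the catalytic subunit of the enzyme that writes N6-methyladenosine into mRNA. Its level was 8.065, 7.845 and 7.96 FPKM in 22Rv1 and 5.22, 4.79 and 4.45 FPKM in LNCaP:C4-2. All 22Rv1 libraries stood above all LNCaP:C4-2 libraries, and the log2 difference was 0.74 (SE 0.10, edgeR adjusted p = 8.49e-06).

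Of 17550 genes that passed the filter on low counts, 10410 were called (59.3%). Of these, 5634 were higher in 22Rv1 (32.1% of the genes tested) and 4776 higher in LNCaP:C4-2 (27.2%), and the median over all genes tested was 0.06. Without the fold threshold 75.9% passed the adjusted p. A change of 4-fold or more was seen for 4080 genes (23.2%), of which 2718 were higher in 22Rv1 (15.5%) and 1362 higher in LNCaP:C4-2 (7.76%). In 13627 genes (77.6%) the libraries of the lines did not overlap, so that a lack of overlap alone says little about a gene. Protein-coding genes accounted for 13867 of the genes tested, with 4201 and 3857 called higher in 22Rv1 and in LNCaP:C4-2. Of 2240 long noncoding RNA genes, 869 and 600 were called.

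**Figure D1:**
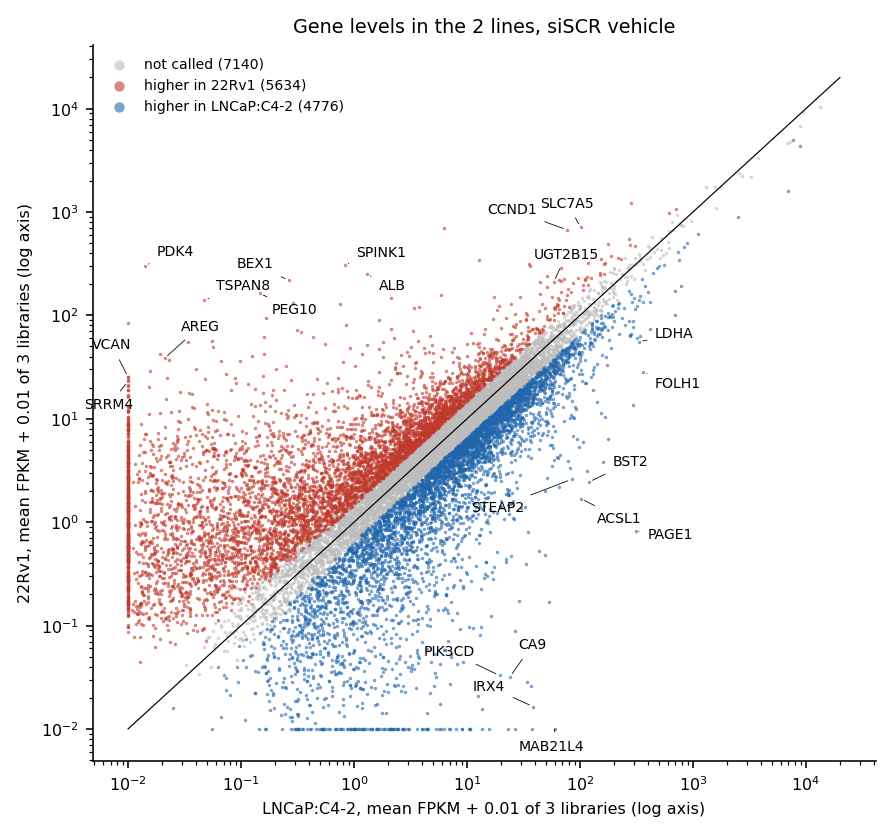
Each point is a gene tested, placed by its mean FPKM plus 0.01 over the 3 siSCR vehicle libraries of LNCaP:C4-2 (horizontal, log axis) and of 22Rv1 (vertical, log axis), and coloured by its call. The 5634 genes higher in 22Rv1 spread far to the left, down to genes with 0 counts in LNCaP:C4-2, and the 4776 genes higher in LNCaP:C4-2 reach the lower edge, where MAB21L4 and others had 0 counts in 22Rv1.

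A set of genes was present in 1 line and at the floor in the other. With at least 1 CPM in every library of a line and at most 3 counts in every library of the other, 820 genes were found in 22Rv1 (1.36% of all genes) and 211 in LNCaP:C4-2 (0.351%). Protein-coding genes made up 602 of the former and 118 of the latter. In the absent line, 355 and 78 of them had 0 counts in all 3 libraries. Levels were mostly low, with medians of 1.38 and 1.28 FPKM, and 41 and 15 of the genes reached 10 FPKM. At these depths 3 counts in a library equalled between 0.159 and 0.176 CPM. This floor covers counting error only.

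The most abundant of the genes found in 22Rv1 was PDK4, the kinase that closes pyruvate dehydrogenase when cells burn fat. It had 23414, 24237 and 27960 counts in 22Rv1 and 1, 0 and 0 counts in LNCaP:C4-2. The ratio was 74500-fold, with a 95% Poisson interval from the few counts of the lower line of 13370 to 2943000. TSPAN8, a tetraspanin of gut epithelium, followed with a mean of 140.2 FPKM in 22Rv1 and 2, 0 and 3 counts in LNCaP:C4-2. VCAN, the matrix proteoglycan versican, had 6466, 6742 and 7540 counts in 22Rv1 and 0 counts in all 3 libraries of LNCaP:C4-2, at least 2178-fold higher in 22Rv1 when set against a floor of 3 counts in a library. ASB9, RIPOR2, ALDH7A1, MDFIC, SSX3, CPNE8, DMRT3, ALPL and CNTFR were likewise at 0 in LNCaP:C4-2, with means in 22Rv1 from 10.3 FPKM (CPNE8) to 84.6 FPKM (ASB9).

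In the other direction MAB21L4, a gene of epithelium, had 0 counts in all 3 libraries of 22Rv1 and 2787, 3533 and 2772 counts in LNCaP:C4-2, at least 1011-fold higher in LNCaP:C4-2. IRX4, a homeobox factor of the Iroquois family, had 0, 1 and 0 counts in 22Rv1 and 2152, 2093 and 1666 counts in LNCaP:C4-2, a ratio of 5999-fold, with a 95% Poisson interval from the few counts of the lower line of 1077 to 236900. ACKR3, a scavenging receptor for the chemokine CXCL12, was at 0.0159 against 37.0 FPKM, and IL32, a cytokine, at 0.005685 against 13.7 FPKM. EFS and HPR were at 0 counts in 22Rv1 and at 10.7 and 13.6 FPKM in LNCaP:C4-2. Large differences with low but readable counts in 22Rv1 were seen for RAB25, a small GTPase of epithelial recycling vesicles (0.159 against 53.2 FPKM), and PREX1, an activator of Rac (0.161 against 28.8 FPKM). GSTT2B at 0 counts in 22Rv1 and HPR have close relatives whose shared fragments were left out of the counts, so their values are uncertain.

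The most abundant nuclear transcripts were largely shared. EEF1A1, the translation elongation factor, led in both lines (1755 ± 138 against 1297 ± 35.96 FPKM) and was not called. Among the 10 highest of 22Rv1 were TMSB10, an actin-binding peptide (1212 ± 314 against 280.1 ± 67.7 FPKM), and SLC7A5, the light chain of a large neutral amino acid transporter. Among the 10 highest of LNCaP:C4-2 were GAPDH (618 ± 9.38 against 1101 ± 45.5 FPKM), the brain-type creatine kinase CKB (193 ± 15.3 against 785.5 ± 56.7 FPKM) and ACTB (343 ± 10.6 against 753 ± 13.5 FPKM). All 5 of these were called, TMSB10 and SLC7A5 higher in 22Rv1 and the others higher in LNCaP:C4-2. VGF, a neuropeptide precursor stored in secretory granules and chosen here after its values were seen, stood just below them in 22Rv1 with 774, 762 and 561 FPKM in 22Rv1 and 7.01, 6.48 and 5.19 FPKM in LNCaP:C4-2.

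Gene groups were read from 43 lists. Over all genes tested, 32.1% were called higher in 22Rv1 and 27.2% higher in LNCaP:C4-2, the shares to set beside each list. Members that were low in both lines did not pass the filter, and a member that passed through its level in 1 line alone had to differ, so counts are given as descriptions beside those of all genes. The lists with the most calls toward 22Rv1 were neuroendocrine markers, HNF factors with gut or liver genes, and HOX genes, each with over 60% of members tested called. Those with the most calls toward LNCaP:C4-2 were cancer-testis antigens (62.5%), glycolysis with HIF-1 targets (57.1%), 7 stromal, endothelial and blood markers (57.1%) and prostate surface targets (53.3%).

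**Figure D2:**
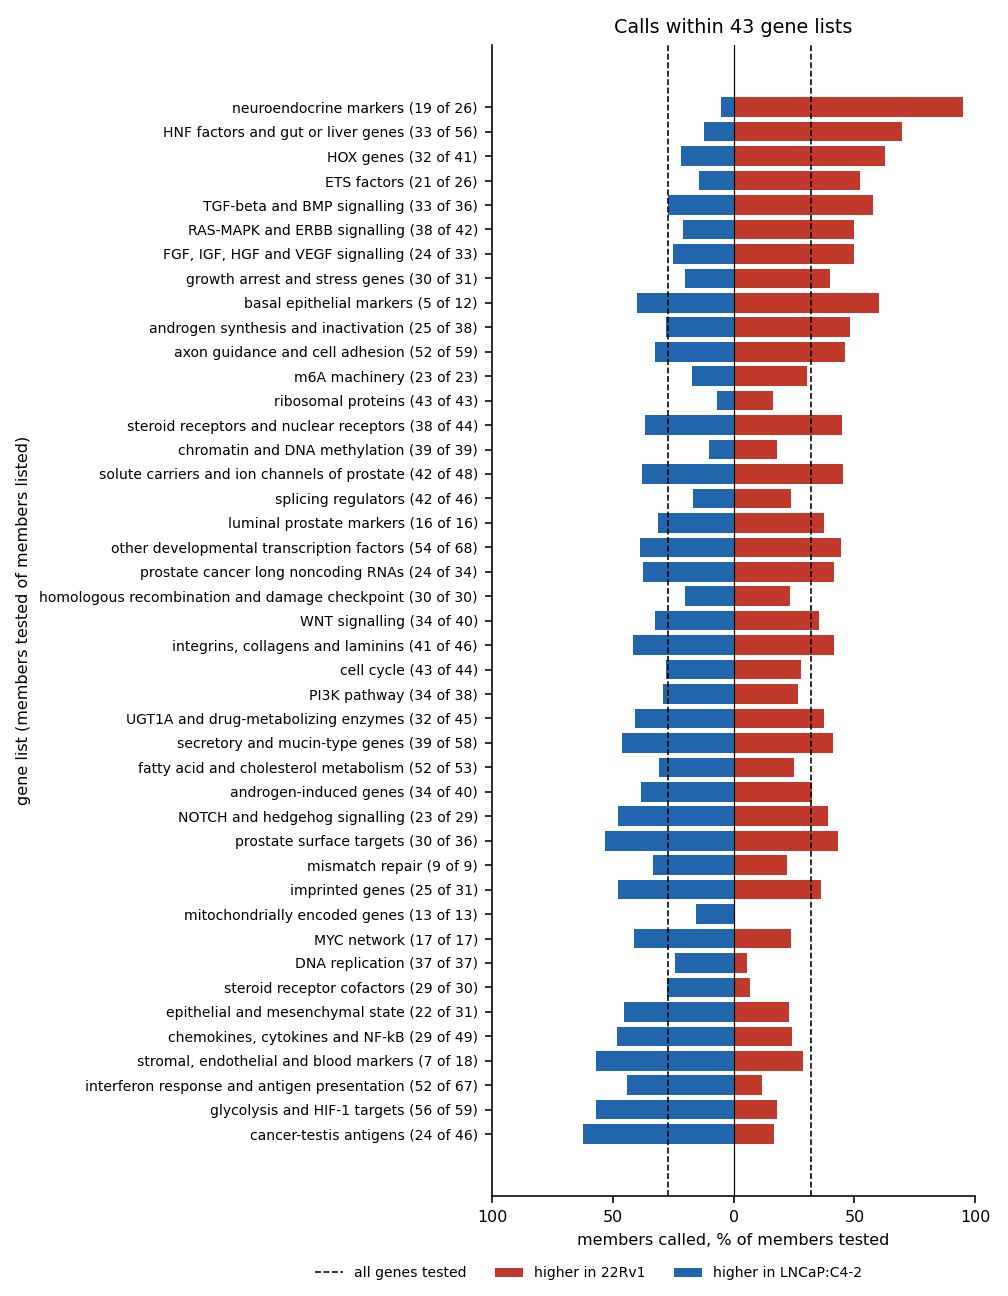
Bars give the members called higher in 22Rv1 (right) and in LNCaP:C4-2 (left) as a percentage of the members tested in each of 43 lists, and dashed lines give the same over all 17550 genes tested (32.1% and 27.2%). Neuroendocrine markers reach 94.7% to the right and cancer-testis antigens 62.5% to the left.

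Of 29 cofactors of steroid receptors tested out of 30 listed, 2 were called higher in 22Rv1 (6.90%, against 32.1% of all genes) and 8 higher in LNCaP:C4-2 (27.6%, against 27.2%). GATA2, a pioneer factor of prostate cells, was at 8.195, 6.595 and 5.06 FPKM in 22Rv1 and 60.9, 60.8 and 49.5 FPKM in LNCaP:C4-2, a log2 difference of −3.09 (SE 0.15, edgeR adjusted p = 1.05e-10). HOXB13, the prostate homeobox factor, was at 25.1 ± 2.72 against 126 ± 10.7 FPKM and the coactivator NCOA1 at 4.25 ± 0.286 against 15.04 ± 1.37 FPKM, both called higher in LNCaP:C4-2, as were the chaperones HSP90AA1 (191.5 against 374 FPKM) and FKBP4 (42.02 against 82.4 FPKM). ARID1A, a subunit of the SWI/SNF remodelling complex, was called higher in 22Rv1 (58.2 ± 4.94 against 18.6 ± 1.74 FPKM).

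Classical androgen-induced genes were split between the lines. Of 34 tested out of 40 listed, 11 were called higher in 22Rv1 (32.35%, against 32.1% of all genes). A further 13 were called higher in LNCaP:C4-2 (38.2%, against 27.2%). The median of the list was −0.02, a value whose sign turned with library size alone and without 22Rv1 replicate 1 or 2. KLK3, which encodes prostate-specific antigen, was at 1.53, 1.40 and 1.40 FPKM in 22Rv1 and 4.72, 4.46 and 3.385 FPKM in LNCaP:C4-2. Each LNCaP:C4-2 library stood above each 22Rv1 library, with a log2 difference of −1.52 (SE 0.15, edgeR adjusted p = 3.68e-07). TMPRSS2, the protease whose promoter is fused to ETS genes in many prostate tumours, was lower in 22Rv1 as well, at 1.26, 0.953 and 0.9305 FPKM in 22Rv1 and 8.44, 8.05 and 7.26 FPKM in LNCaP:C4-2. Other genes of the list that were higher in LNCaP:C4-2 included the efflux pump ABCC4 (1.92 against 24.98 FPKM), the polyol enzyme SORD (5.60 against 56.6 FPKM), AMACR, a racemase used as a tissue marker of prostate cancer (0.690 against 6.555 FPKM), and NDRG1 (2.97 against 23.1 FPKM). The neighbouring kallikrein KLK4 went in the other direction, at 109, 94.9 and 77.1 FPKM in 22Rv1 and 25.5, 23.9 and 17.03 FPKM in LNCaP:C4-2, and so did KLK2 (4.97 against 2.46 FPKM). FKBP5, a cochaperone of steroid receptors, was at 17.5 ± 0.450 against 7.92 ± 0.494 FPKM and called higher in 22Rv1, as were HPGD, which inactivates prostaglandins (11.9 against 0.190 FPKM), and the elongation factor ELL2 (20.7 against 4.86 FPKM).

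**Figure D3:**
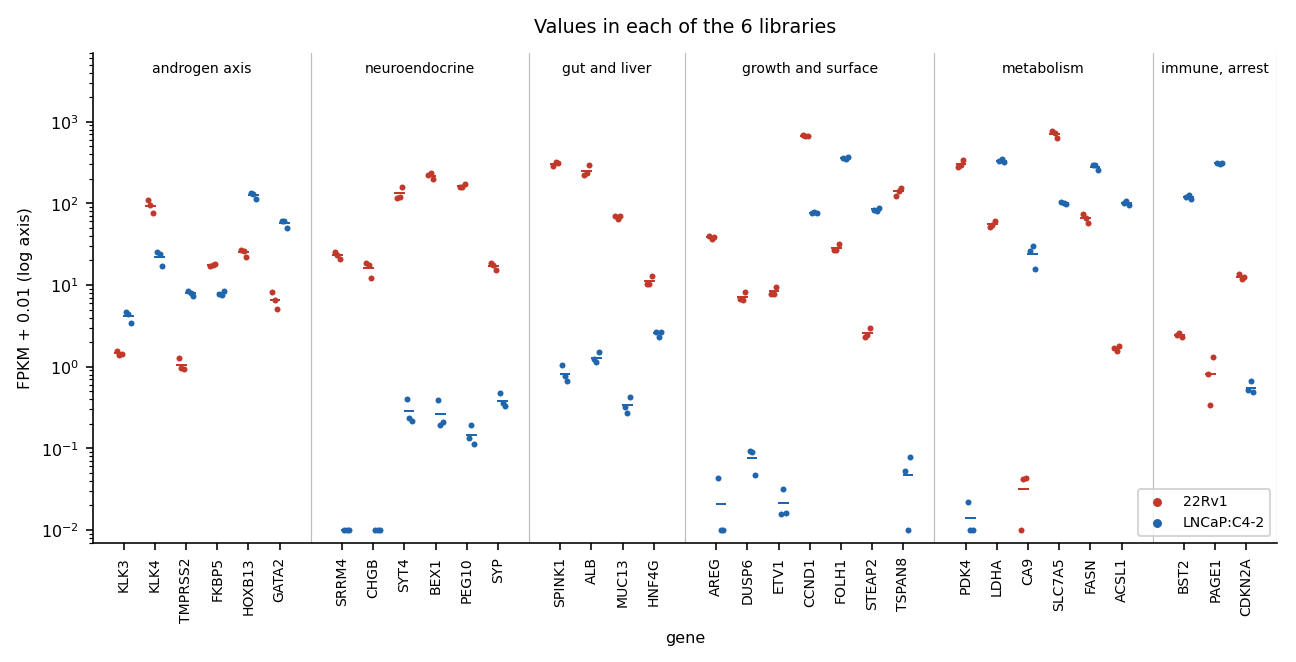
FPKM plus 0.01 of 32 genes (log axis) in each of the 3 siSCR vehicle libraries of 22Rv1 (red) and LNCaP:C4-2 (blue), with horizontal bars at the mean. The libraries of the lines do not overlap in any of these chosen genes, from KLK3 with means of 1.445 and 4.19 FPKM to SRRM4 and CHGB with 0 counts in LNCaP:C4-2. Over all genes tested the same held for 77.6%.

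Other nuclear receptors differed as well. NR3C1, the glucocorticoid receptor, was at 994, 1098 and 997 counts in 22Rv1 and 7, 4 and 5 counts in LNCaP:C4-2, a log2 difference of 7.56 (SE 0.19, edgeR adjusted p = 9.91e-14). All 22Rv1 libraries carried it while LNCaP:C4-2 was near the floor. NR5A2, a nuclear receptor of gut and liver, was at 3.62 against 0.0270 FPKM. Receptors that were higher in LNCaP:C4-2 included RXRA, the shared partner of many nuclear receptors (1.95 ± 0.210 against 22.8 ± 1.11 FPKM), the thyroid hormone receptor THRB (0.522 against 4.82 FPKM), VDR, the vitamin D receptor (2.80 against 8.51 FPKM), and the orphan receptor NR2F2 (4.52 against 16.3 FPKM). In all, 17 of 38 receptors tested were called higher in 22Rv1 (44.7%, against 32.1% of all genes). A further 14 were called higher in LNCaP:C4-2 (36.8%, against 27.2%), and 44 were listed.

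Enzymes that inactivate androgens were distributed by family member. AKR1C2, which reduces dihydrotestosterone, was at 55.5 against 0.0239 FPKM, and AKR1C1 at 7.955 against 0.0287 FPKM, both called higher in 22Rv1. UGT2B15, which attaches glucuronic acid to androgens, was at 209 ± 26.65 against 58.5 ± 10.3 FPKM, and UGT2B10 and UGT2B4 were also higher in 22Rv1 (56.0 against 3.70 FPKM and 21.4 against 1.31 FPKM). UGT2B17, UGT2B11 and UGT2B28 were higher in LNCaP:C4-2, with UGT2B17 at 1.93 against 13.4 FPKM. Of 25 genes of androgen synthesis and inactivation tested out of 38 listed, 12 and 7 were called higher in 22Rv1 and in LNCaP:C4-2. These families hold near-identical copies and fragments that aligned to several places were left out, so the split among members is uncertain. Among detoxifying enzymes the quinone reductase NQO1 (4.12 ± 0.279 against 64.3 ± 5.70 FPKM), the epoxide hydrolase EPHX1 (6.31 ± 0.230 against 178 ± 8.46 FPKM) and GSTM3 (0.430 against 22.3 FPKM) were higher in LNCaP:C4-2, and ALDH1A1, a retinaldehyde dehydrogenase, in 22Rv1 (39.4 ± 3.57 against 5.92 ± 0.264 FPKM).

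Neuronal and neuroendocrine genes had the highest share of calls toward 22Rv1 of any list. SRRM4, a splicing factor that inserts neuronal microexons, had 4174, 3735 and 3393 counts in 22Rv1 and 0 counts in all 3 libraries of LNCaP:C4-2. It was at least 1184-fold higher in 22Rv1. CHGB, the granule protein chromogranin B, had 1577, 1465 and 1002 counts in 22Rv1 and 0 counts in all 3 libraries of LNCaP:C4-2 and was at least 423.5-fold higher. Its relatives in the granule followed: SCG3 at 28.8 against 0.00548 FPKM, SCG2 at 2.45 against 0.0265 FPKM and the proprotein chaperone SCG5 at 1.72 against 0.309 FPKM. Genes of synaptic vesicles and their release were higher too, with SYT4, a calcium sensor, at 115, 121 and 160.3 FPKM in 22Rv1 and 0.393, 0.227 and 0.207 FPKM in LNCaP:C4-2. SNAP25, which drives vesicle fusion, was at 20.2 against 0.00541 FPKM and the vesicle marker SYP at 17.2 ± 1.78 against 0.375 ± 0.0747 FPKM.

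Several usual markers of neuroendocrine cells were low or absent in 22Rv1. CHGA, chromogranin A, had 20, 13 and 18 counts in 22Rv1 and 0, 4 and 2 counts in LNCaP:C4-2, and the lineage factors INSM1 and NEUROD1 had 0 to 6 counts in every library. REST, the repressor of neuronal genes in other tissues, was present in both lines and called higher in 22Rv1, at 15.15 ± 1.615 against 8.58 ± 0.645 FPKM. DLL3, a Notch ligand of neuroendocrine tumours, was called higher in LNCaP:C4-2 (1.91 ± 0.557 against 4.88 ± 0.470 FPKM). The retrotransposon-derived gene PEG10 was at 159, 159 and 172 FPKM in 22Rv1 and 0.122, 0.183 and 0.103 FPKM in LNCaP:C4-2 and BEX1, a small protein of neurons, at 222, 236 and 197 FPKM in 22Rv1 and 0.378, 0.184 and 0.199 FPKM in LNCaP:C4-2. Among the lineage factors that passed the filter in 22Rv1 were SOX2 (1.55 against 0 FPKM), MYCN (1.15 against 0 FPKM), POU3F2 (1.90 against 0.228 FPKM) and ONECUT2 (2.82 against 0.882 FPKM). Of 19 members tested out of 26 listed, 18 were called higher in 22Rv1 and 1 higher in LNCaP:C4-2, against 32.1% and 27.2% of all genes. Their median was 7.53, or 5.28 with genes at 3 counts or fewer in LNCaP:C4-2 set against the floor.

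Gut and liver genes formed the next group. SPINK1, a trypsin inhibitor that marks a subset of prostate cancers, was at 287, 322 and 314.5 FPKM in 22Rv1 and 1.03, 0.753 and 0.658 FPKM in LNCaP:C4-2, a log2 difference of 8.57 (SE 0.14, edgeR adjusted p = 5.28e-15). ALB, serum albumin, was at 221, 235 and 294 FPKM in 22Rv1 and 1.23, 1.12 and 1.51 FPKM in LNCaP:C4-2. Both were abundant in every 22Rv1 library and low in every LNCaP:C4-2 library. The mucin MUC13 (68.7 ± 3.396 against 0.326 ± 0.0768 FPKM), the brush border protein VIL1 (19.05 ± 2.09 against 0.0717 ± 0.01575 FPKM) and AGR2, a disulfide isomerase of mucus-secreting cells (24.6 ± 1.595 against 0.0784 ± 0.0549 FPKM), were called higher in 22Rv1. So were the plasma proteins AMBP (32.5 against 0.241 FPKM) and APOH, the latter with 0 counts in LNCaP:C4-2 and at least 184-fold higher.

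Some factors that drive such genes in liver and gut were higher in 22Rv1 as well. HNF4G was at 10.3, 10.3 and 13.05 FPKM in 22Rv1 and 2.64, 2.32 and 2.68 FPKM in LNCaP:C4-2, a log2 difference of 2.16 (SE 0.13, edgeR adjusted p = 8.58e-10). FOXA3 had 135, 97 and 102 counts in 22Rv1 and 0 counts in all 3 libraries of LNCaP:C4-2. In the other direction stood the trefoil peptide TFF3, at 0 counts in 22Rv1 and at least 64.7-fold higher in LNCaP:C4-2. Of 33 members tested out of 56 listed, 23 and 4 were called higher in 22Rv1 and in LNCaP:C4-2. The shares were 69.7% and 12.1%, against 32.1% and 27.2% of all genes. The median of 5.72 became 2.82 with genes at the floor set against it.

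Promoters of 2 genes from these groups show what the sequence around the start site holds. The sequences are from RefSeq on GRCh38.p14, 250 bases before to 50 after the start, written 5′ to 3′ on the gene's strand. Capitals mark a match, searched on both strands, to the HNF4 site CAAAGTCCA in MUC13 and to the androgen response element in GATA2. The match in MUC13 lies on the opposite strand, so that its capitals read as the reverse complement of the site. The letters searched for the androgen response element were the capitals of GATA2 with any base at positions 2, 6, 7, 8 and 12. MUC13 (chr3:124934702-124935001, minus strand) and GATA2 (chr3:128493152-128493451, minus strand) were taken from promoters that held a match. Their genes also had a log2 difference of at least 3 in either direction. The former was at 68.7 against 0.326 FPKM and the latter at 6.62 against 57.1 FPKM. That each holds a site was therefore fixed by the choice.
MUC13: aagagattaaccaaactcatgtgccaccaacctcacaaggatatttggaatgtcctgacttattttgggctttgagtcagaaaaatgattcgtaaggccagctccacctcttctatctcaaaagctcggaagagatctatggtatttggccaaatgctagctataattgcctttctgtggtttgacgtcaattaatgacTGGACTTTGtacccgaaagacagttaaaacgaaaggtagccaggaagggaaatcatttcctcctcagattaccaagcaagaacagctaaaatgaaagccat
GATA2: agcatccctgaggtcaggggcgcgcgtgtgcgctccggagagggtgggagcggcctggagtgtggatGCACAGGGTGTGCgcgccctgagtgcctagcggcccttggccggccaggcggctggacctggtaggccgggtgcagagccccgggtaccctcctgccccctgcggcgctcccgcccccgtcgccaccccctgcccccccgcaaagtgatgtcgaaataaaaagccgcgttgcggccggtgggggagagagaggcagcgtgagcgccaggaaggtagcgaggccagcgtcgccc

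The match in MUC13 begins at base −51 from the start site and that in GATA2 at −183. Of 27305 promoters of this length, 0.359% held the HNF4 site and 0.388% the androgen response element. Of the 11227 tested protein-coding genes with a promoter in the table, 0.276% and 0.169% held them. Among the 1506 of these called at 4-fold or more toward 22Rv1 the counts were 6 and 3 (0.398% and 0.199%). Among the 762 toward LNCaP:C4-2 they were 3 and 3 (0.394% each). Of the 16 gut or liver genes called higher in 22Rv1 with a promoter in the table, only MUC13 held an HNF4 site in this window. A match is a description of letters and not of binding. CG pairs were also counted. The median promoter held 26 among the protein-coding genes tested, 5 among these gut or liver genes, 24 among 14 neuroendocrine markers called higher in 22Rv1 and 18 and 15 among the 439 and 79 genes that the floor rule found in 22Rv1 and in LNCaP:C4-2.

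Surface proteins studied as targets for imaging and antibodies were divided between the lines. FOLH1, which encodes prostate-specific membrane antigen, was at 27.1, 26.5 and 31.4 FPKM in 22Rv1 and 359.8, 352 and 369 FPKM in LNCaP:C4-2. Every LNCaP:C4-2 library stood more than 10-fold above every 22Rv1 library, with a log2 difference of −3.65 (SE 0.09, edgeR adjusted p = 9.31e-14). The metalloreductases STEAP1 (3.87 ± 0.577 against 78.6 ± 6.135 FPKM) and STEAP2 (2.58 ± 0.367 against 84.2 ± 3.38 FPKM) and the choline transporter-like protein SLC44A4 (3.49 ± 0.180 against 56.3 ± 5.32 FPKM) went the same way, as did the prostate stem cell antigen PSCA (0.0408 against 2.52 FPKM) and ERBB2 (7.58 ± 0.9235 against 23.5 ± 2.69 FPKM). 22Rv1 carried TSPAN8, CD44, an adhesion receptor for hyaluronan at 0 counts in LNCaP:C4-2 and at least 204-fold higher, and NT5E, the enzyme that makes adenosine outside the cell (3.815 against 0.0324 FPKM). The receptor MET was at 8.01 ± 0.670 against 2.48 ± 0.242 FPKM. CD46, a brake on complement, was at 65.8 ± 9.27 against 24.1 ± 2.21 FPKM, and both were called higher in 22Rv1. In all 13 of 30 targets tested out of 36 listed were called higher in 22Rv1 and 16 higher in LNCaP:C4-2. These are 43.3% and 53.3%, against 32.1% and 27.2% of all genes.

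Several growth factor ligands and feedback genes of RAS-MAPK signalling were higher in 22Rv1. AREG, a ligand of the epidermal growth factor receptor, had 1221, 1118 and 1172 counts in 22Rv1 and 1, 0 and 0 counts in LNCaP:C4-2. EREG, another ligand, had 227, 220 and 252 counts in 22Rv1 and 0 counts in all 3 libraries of LNCaP:C4-2. DUSP6, a phosphatase that the pathway induces to shut off ERK, was at 6.74, 6.51 and 8.28 FPKM in 22Rv1 and 0.0823, 0.0802 and 0.0371 FPKM in LNCaP:C4-2. SPRY4 (5.01 ± 0.704 against 0.1015 ± 0.0553 FPKM), SPRY2 (7.57 ± 1.145 against 0.489 ± 0.05525 FPKM), DUSP4 (7.285 ± 0.385 against 0.467 ± 0.0778 FPKM) and SPRED1 (9.21 ± 0.424 against 1.20 ± 0.0798 FPKM), further brakes on the pathway, and the immediate early factor EGR1 (9.70 ± 1.36 against 0.584 ± 0.02285 FPKM) were called in the same direction. The receptors EGFR (3.19 ± 0.269 against 9.06 ± 1.06 FPKM) and ERBB2 and the ligand EGF (0.100 against 2.58 FPKM) were higher in LNCaP:C4-2, and ERBB3 was not called (22.2 ± 1.795 against 20.5 ± 1.07 FPKM). Of 38 genes tested out of 42 listed, 19 and 8 were called higher in 22Rv1 and in LNCaP:C4-2.

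ETS factors of the PEA3 family were higher in 22Rv1 as well. ETV4 was at 13.6 ± 1.22 against 0.284 ± 0.0632 FPKM, ETV5 at 7.76 ± 0.0166 against 0.170 ± 0.117 FPKM and ETV1 at 8.34 ± 0.9285 against 0.0112 ± 0.00940 FPKM, all called higher in 22Rv1. EHF, an ETS factor of epithelial differentiation, was at 12.3, 13.5 and 13.2 FPKM in 22Rv1 and 87.5, 91.0 and 90.5 FPKM in LNCaP:C4-2 and higher in LNCaP:C4-2. SPDEF, an ETS factor of luminal prostate cells, was at 89.2 ± 10.3 against 33.4 ± 1.61 FPKM and ELF3 at 19.6 ± 1.29 against 4.89 ± 0.716 FPKM, both higher in 22Rv1. ERG, the ETS gene most often fused in prostate cancer, had 3 counts at most in any library.

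TGF-beta and BMP genes were called more often toward 22Rv1, with 19 of 33 tested higher there (57.6%, against 32.1% of all genes). The 9 higher in LNCaP:C4-2 (27.3%) matched the share of all genes (27.2%), and 36 were listed. The ligand BMP2 had 659, 565 and 587 counts in 22Rv1 and 0 counts in all 3 libraries of LNCaP:C4-2, at least 189.8-fold higher in 22Rv1. FST, which traps activin, was at 18.25 against 0.0190 FPKM, and TGFBR2, the type II receptor, at 1.96 against 0.0271 FPKM. The BMP targets ID2 (44.2 ± 3.53 against 7.38 ± 0.994 FPKM), ID3 (58.8 ± 4.90 against 18.1 ± 2.10 FPKM) and ID4 (24.2 ± 2.06 against 0.456 ± 0.112 FPKM) were called higher in 22Rv1, and ID1 was not (78.0 ± 4.15 against 53.1 ± 7.12 FPKM). SMAD6, an inhibitor of the pathway, was higher in LNCaP:C4-2 (1.95 ± 0.185 against 7.51 ± 0.963 FPKM).

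The Wnt and Notch lists were mixed. LGR5, an R-spondin receptor of intestinal stem cells, was at 0 counts in LNCaP:C4-2 and at 1.965 FPKM in 22Rv1. RNF43, a ligase that removes Wnt receptors and is itself a Wnt target, was at 18.7 ± 0.689 against 1.61 ± 0.381 FPKM. Notch pathway genes with the opposite sign were the ligands JAG1 (0.0319 against 3.22 FPKM) and JAG2 (5.08 ± 0.584 against 35.3 ± 3.94 FPKM), the receptor NOTCH2 (1.215 ± 0.0436 against 6.96 ± 0.720 FPKM) and HES6 (7.63 ± 1.77 against 52.4 ± 9.26 FPKM), while HES1, the main target, was higher in 22Rv1 (30.4 ± 3.01 against 8.63 ± 0.347 FPKM). SMO, the transducer of hedgehog signals, was at 0 counts in 22Rv1 and at 1.59 FPKM in LNCaP:C4-2. Wnt genes were called 12 and 11 times of 34 tested and 40 listed (35.3% and 32.35%, against 32.1% and 27.2% of all genes). Notch and hedgehog genes were called 9 and 11 times of 23 tested and 29 listed (39.1% and 47.8%). Of the fibroblast, insulin-like and hepatocyte growth factor genes, 12 and 6 were called of 24 tested and 33 listed, with FGFR3 (7.04 ± 0.920 against 0.990 ± 0.207 FPKM) and HGF (11.2 ± 1.19 against 3.14 ± 0.155 FPKM) higher in 22Rv1 and FGFR2 near the floor there (0.0144 against 1.19 FPKM).

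Phosphoinositide signalling differed in single genes. PIK3CD, the catalytic subunit p110 delta, was at 0.0168, 0.0172 and 0.0346 FPKM in 22Rv1 and 21.6, 18.55 and 18.02 FPKM in LNCaP:C4-2, a log2 difference of −9.65 (SE 0.20, edgeR adjusted p = 2.5e-14). IRS2, an adaptor of the insulin receptor, was at 56.3, 54.75 and 46.1 FPKM in 22Rv1 and 0.522, 0.600 and 0.500 FPKM in LNCaP:C4-2. AKT1 was higher in LNCaP:C4-2 (12.55 ± 0.501 against 31.6 ± 2.77 FPKM). The antiapoptotic genes split, with BCL2 (1.55 against 0.137 FPKM) and MCL1 (90.8 ± 3.76 against 53.7 ± 1.595 FPKM) higher in 22Rv1 and BCL2L1 (5.755 ± 0.698 against 19.1 ± 1.63 FPKM) higher in LNCaP:C4-2. Of 34 genes tested out of 38 listed, 9 and 10 were called (26.5% and 29.4%, against 32.1% and 27.2% of all genes).

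Most glycolytic enzymes and hypoxia-inducible genes that were called were higher in LNCaP:C4-2. LDHA, which makes lactate, was at 50.9, 54.5 and 60.7 FPKM in 22Rv1 and 333, 347 and 318 FPKM in LNCaP:C4-2, a log2 difference of −2.57 (SE 0.09, edgeR adjusted p = 1.93e-12). Steps from the top to the bottom of glycolysis moved together: HK1 (11.6 ± 1.15 against 43.1 ± 0.705 FPKM), GPI (29.8 ± 2.50 against 130.3 ± 11.2 FPKM), PFKP (4.43 ± 0.726 against 66.2 ± 7.85 FPKM), ALDOA (87.55 ± 10.6 against 295 ± 37.7 FPKM), PGK1 (60.1 ± 3.94 against 317 ± 39.3 FPKM), PGAM1 (63.0 ± 1.10 against 277 ± 4.15 FPKM), ENO1 (171 ± 3.91 against 694 ± 66.0 FPKM) and PKM (64.4 ± 5.46 against 275 ± 26.2 FPKM) were all called higher in LNCaP:C4-2. Hypoxia-inducible genes with other roles did so too, among them CA9, a carbonic anhydrase at the cell surface, at 0, 1 and 1 counts in 22Rv1 and 792, 955 and 460 counts in LNCaP:C4-2. The lactate exporter SLC16A3 (1.06 ± 0.247 against 26.1 ± 4.68 FPKM), the mitophagy receptor BNIP3 (14.5 ± 1.38 against 141 ± 19.2 FPKM) and the prolyl hydroxylase EGLN3 (0.680 ± 0.0995 against 11.9 ± 1.03 FPKM) were also higher in LNCaP:C4-2. HIF1A itself was at 20.6 ± 3.09 against 27.2 ± 2.37 FPKM and VEGFA at 17.6 ± 1.46 against 21.7 ± 4.67 FPKM, and neither was called.

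Members of the list that were higher in 22Rv1 were PDK4, the carbonic anhydrase CA12 (146.5 ± 3.835 against 2.12 ± 0.204 FPKM), the heart-type lactate dehydrogenase LDHB (348 ± 25.4 against 154 ± 12.4 FPKM) and ASNS, which makes asparagine (228.5 ± 23.9 against 95.2 ± 6.96 FPKM). Of 56 genes tested out of 59 listed, 10 were called higher in 22Rv1 and 32 higher in LNCaP:C4-2, with a median of −0.86. Their shares were 17.9% and 57.1%, against 32.1% and 27.2% of all genes. No culture condition in the labels separates the lines, and oxygen and cell density were not recorded in them.

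Solute carriers and ion channels were called in both directions. SLC7A5, the amino acid transporter subunit, was at 763, 730.3 and 639 FPKM in 22Rv1 and 103, 102 and 98.6 FPKM in LNCaP:C4-2, and its partner SLC3A2, with which it forms the transporter at the membrane, at 238 ± 17.25 against 50.8 ± 4.27 FPKM. SLC38A2 (150.5 ± 14.7 against 56.9 ± 3.78 FPKM), SLC1A5 (98.8 ± 5.63 against 51.5 ± 1.515 FPKM) and SLC7A11 (36.7 ± 3.37 against 20.4 ± 1.08 FPKM) were called in the same direction. LNCaP:C4-2 was higher in SLC30A4, a zinc transporter (0.519 ± 0.1185 against 43.7 ± 3.15 FPKM), in ATP1B1, a subunit of the sodium pump (33.5 ± 2.92 against 142.5 ± 4.34 FPKM), and in the epithelial sodium channel subunit SCNN1A (2.94 ± 0.333 against 16.98 ± 0.955 FPKM). Metallothioneins MT1G and MT1E were at 0 counts in LNCaP:C4-2 and at 17.1 and 4.82 FPKM in 22Rv1, and MT1X was higher in LNCaP:C4-2 (1.35 against 4.43 FPKM). Of 42 genes tested out of 48 listed, 19 and 16 were called higher in 22Rv1 and in LNCaP:C4-2. The shares were 45.2% and 38.1%, against 32.1% and 27.2% of all genes.

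Lipid genes were called in both directions. FASN, the fatty acid synthase, was higher in LNCaP:C4-2, at 74.65, 66.5 and 57.2 FPKM in 22Rv1 and 298.5, 292 and 256 FPKM in LNCaP:C4-2. FADS2, a desaturase, was at 3.79 ± 0.465 against 161 ± 12.45 FPKM, ACSL1, which activates fatty acids, at 1.68 ± 0.119 against 102 ± 6.01 FPKM, and the regulator SREBF1 at 22.4 ± 3.21 against 111 ± 7.12 FPKM, all called in the same direction. The sterol pathway enzymes HMGCS1 (83.4 ± 7.14 against 27.2 ± 2.85 FPKM) and FDFT1 (118 ± 7.44 against 59.4 ± 3.215 FPKM) were higher in 22Rv1, together with the regulator SREBF2 (68.3 ± 5.29 against 43.3 ± 3.18 FPKM). Of 52 genes of fatty acid and cholesterol metabolism tested out of 53 listed, 13 and 16 were called.

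Interferon and antigen presentation genes were called more often toward LNCaP:C4-2. BST2, which tethers budding viruses, was at 2.42, 2.58 and 2.30 FPKM in 22Rv1 and 120.1, 127 and 112 FPKM in LNCaP:C4-2, a log2 difference of −5.60 (SE 0.12, edgeR adjusted p = 3.76e-14). The class I genes HLA-B (5.26 ± 0.636 against 12.3 ± 1.44 FPKM) and HLA-C (32.4 ± 3.51 against 67.0 ± 7.86 FPKM), the proteasome subunit PSMB8 (0.565 ± 0.182 against 1.96 ± 0.0886 FPKM) and the factor IRF7 (1.85 ± 0.399 against 22.97 ± 1.09 FPKM) were called higher in LNCaP:C4-2. B2M, the shared light chain of class I, was not called (30.2 ± 4.07 against 27.9 ± 1.77 FPKM). ISG15, an interferon-induced modifier, went the other way (110.0 ± 9.002 against 43.7 ± 3.10 FPKM). Of 52 genes tested out of 67 listed, 6 and 23 were called higher in 22Rv1 and in LNCaP:C4-2, with a median of −0.47. These are 11.5% and 44.2%, against 32.1% and 27.2% of all genes. HLA genes vary between people, and fragments that match the reference poorly can be lost, which was not tested. Chemokine, cytokine and NF-kB genes were also called more often toward LNCaP:C4-2, with 7 and 14 of 29 tested and 49 listed (24.1% and 48.3%). CX3CL1, a chemokine with a membrane stalk, was among those higher in 22Rv1, at 0 counts in LNCaP:C4-2 and 5.98 FPKM in 22Rv1.

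Cancer-testis antigens, germline genes that tumours reactivate, were expressed in both lines, and different members were highest. PAGE1 was at 0.799, 0.328 and 1.32 FPKM in 22Rv1 and 316, 305 and 309 FPKM in LNCaP:C4-2. MAGEA10 was at 1, 0 and 2 counts in 22Rv1 and 1730, 1825 and 1780 counts in LNCaP:C4-2 and PRAME at 7.32 ± 0.502 against 47.0 ± 1.62 FPKM, both higher in LNCaP:C4-2, whereas MAGEA4 was at 61.7 ± 4.74 against 0.149 ± 0.0369 FPKM and TEX15 at 3.22 ± 0.499 against 0.0944 ± 0.0192 FPKM, both higher in 22Rv1. CTAG2 (90.2 ± 7.16 against 87.1 ± 7.435 FPKM) and MAGEA1 (50.8 ± 4.09 against 68.5 ± 2.36 FPKM) were abundant in both and not called. Of 24 genes tested out of 46 listed, 4 and 15 were called higher in 22Rv1 and in LNCaP:C4-2. The shares were 16.7% and 62.5%, against 32.1% and 27.2% of all genes. Close copies in these families make the values of single members uncertain.

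Genes of growth arrest and cell stress were called in both directions. CDKN2A, which encodes the inhibitors p16 and p14ARF, was at 13.6, 11.9 and 12.5 FPKM in 22Rv1 and 0.503, 0.650 and 0.4765 FPKM in LNCaP:C4-2. Others that were higher in 22Rv1 were GDF15, a stress cytokine (217.5 ± 26.6 against 64.85 ± 22.8 FPKM), BBC3, a killer protein of the BCL2 family (28.15 ± 5.58 against 1.66 ± 0.487 FPKM), the stress-induced SESN2 (44.55 ± 4.03 against 17.4 ± 1.65 FPKM) and the kinase inhibitor CDKN1A (39.0 ± 1.88 against 25.25 ± 1.499 FPKM). MDM2, a ubiquitin ligase, was not called (12.9 ± 1.36 against 9.95 ± 0.837 FPKM). Of 30 genes tested out of 31 listed, 12 were called higher in 22Rv1, which is 40.0% beside 32.1% of all genes, and 6 higher in LNCaP:C4-2.

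Cyclin D1 was among the most abundant transcripts of 22Rv1. CCND1 was at 679.7, 666 and 669 FPKM in 22Rv1 and 75.4, 78.7 and 76.4 FPKM in LNCaP:C4-2, a log2 difference of 3.15 (SE 0.07, edgeR adjusted p = 5.96e-14). Its partner kinase CDK6 was at 4.99 ± 0.314 against 0.2355 ± 0.0445 FPKM, and the inhibitor CDKN1B at 149.6 ± 1.39 against 29.5 ± 2.23 FPKM. MYBL2 (17.3 ± 1.85 against 56.6 ± 1.31 FPKM), CCNE1 (2.25 ± 0.278 against 6.95 ± 0.260 FPKM), FOXM1 (21.5 ± 2.705 against 45.5 ± 2.05 FPKM) and CDK1 (43.1 ± 7.23 against 90.35 ± 8.435 FPKM), which act after cyclin D1 in the cycle, were higher in LNCaP:C4-2, while MKI67 (18.15 ± 0.302 against 14.1 ± 1.73 FPKM) and TOP2A (57.45 ± 9.20 against 40.7 ± 5.29 FPKM) were not called. The cell cycle list had 12 calls in each direction of 43 tested and 44 listed (27.9% each). DNA replication genes had 2 and 9 of 37 tested and listed, with a median of −0.28. Their shares were 5.41% and 24.3%, against 32.1% and 27.2% of all genes. TK1, which salvages thymidine, was at 39.2 ± 3.53 against 169.5 ± 8.997 FPKM. MYC was at 106 ± 6.725 against 64.05 ± 3.25 FPKM and called higher in 22Rv1.

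DNA repair genes showed single large differences. MSH6 (2.39 ± 0.104 against 6.075 ± 0.360 FPKM) and MSH3 (0.878 ± 0.101 against 2.90 ± 0.278 FPKM), which recognise mismatched bases, were called higher in LNCaP:C4-2, and PMS1 was called higher in 22Rv1 (8.84 ± 1.60 against 4.49 ± 0.382 FPKM). Of 9 mismatch repair genes tested, 2 were called higher in 22Rv1 and 3 higher in LNCaP:C4-2 (22.2% and 33.3%, against 32.1% and 27.2% of all genes). BARD1, the partner of BRCA1, was at 2.84 ± 0.582 against 29.4 ± 2.11 FPKM, BRCA2 at 2.55 ± 0.623 against 8.41 ± 1.735 FPKM and RAD54L at 3.31 ± 0.309 against 12.45 ± 0.803 FPKM, called higher in LNCaP:C4-2, while BRCA1 was higher in 22Rv1 (13.2 ± 1.525 against 8.36 ± 0.956 FPKM). Of 30 homologous recombination genes tested, 7 and 6 were called and 17 were not. Both shares lay below those of all genes (32.1% and 27.2%). Counts per gene do not show deletions of single exons.

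Epithelial junction genes were expressed in both lines. CDH1, E-cadherin, was at 69.2 ± 0.713 against 133 ± 1.95 FPKM, CLDN4 at 30.8 ± 3.57 against 63.75 ± 5.31 FPKM and the junction scaffold TJP1 at 10.1 ± 1.02 against 41.05 ± 3.71 FPKM, all called higher in LNCaP:C4-2. 22Rv1 carried CDH2, N-cadherin (2.65 FPKM), and TWIST1, a factor of mesenchymal change (7.997 FPKM), both at 0 counts in LNCaP:C4-2. ESRP1, the splicing factor of epithelia, was higher in 22Rv1 (49.0 ± 3.50 against 12.8 ± 0.312 FPKM). Of 22 genes tested out of 31 listed, 5 and 10 were called (22.7% and 45.45%, against 32.1% and 27.2% of all genes). Among matrix genes THBS1 (17.4 ± 0.695 against 0.426 ± 0.0214 FPKM) and COL5A2 (6.53 ± 0.249 against 0.201 ± 0.0538 FPKM) were higher in 22Rv1. COL6A1 (2.18 ± 0.242 against 64.9 ± 8.48 FPKM), COL6A2 (0.275 ± 0.07915 against 17.1 ± 2.495 FPKM) and AGRN (13.65 ± 2.01 against 37.7 ± 3.73 FPKM) were higher in LNCaP:C4-2. The matrix list had 17 calls in each direction of 41 tested and 46 listed (41.5% each). The secreted protease inhibitors divided too, with TIMP1 at 49.1 against 0.0465 FPKM and TIMP2 at 0.794 ± 0.288 against 15.9 ± 1.11 FPKM. Axon guidance genes had 24 and 17 calls of 52 tested and 59 listed (46.15% and 32.7%). The receptor EPHB3 was higher in 22Rv1 (156 ± 16.4 against 5.86 ± 0.268 FPKM) and the ligand EFNA5 in LNCaP:C4-2 (1.08 ± 0.0307 against 25.4 ± 0.472 FPKM).

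Homeobox and other developmental factors set the lines apart. GATA3, a luminal factor of breast and bladder, was at 45.4, 39.7 and 37.5 FPKM in 22Rv1 and 0.0670, 0.0816 and 0.194 FPKM in LNCaP:C4-2, a log2 difference of 8.50 (SE 0.20, edgeR adjusted p = 6.67e-14). Of 11 HOXA genes tested, 10 were called higher in 22Rv1 and none higher in LNCaP:C4-2, with HOXA5 at 28.9 ± 0.5865 against 3.90 ± 0.704 FPKM and HOXA10 at 20.5 ± 0.389 against 5.605 ± 0.573 FPKM. Of 9 HOXC genes, 2 and 5 were called, with HOXC10 at 11.02 ± 0.940 against 0.237 ± 0.0726 FPKM and HOXC6 at 5.18 ± 0.420 against 12.04 ± 1.11 FPKM. The whole HOX list had 20 and 7 calls of 32 tested and 41 listed, and a median of 2.02. These are 62.5% and 21.9%, against 32.1% and 27.2% of all genes. Outside the clusters, NKX2-5, a heart factor, was at 0 counts in LNCaP:C4-2 and at 9.71 FPKM in 22Rv1, and IRX3 and IRX5 were higher in 22Rv1 (92.55 ± 11.8 against 17.1 ± 1.675 FPKM and 35.6 ± 2.57 against 3.51 ± 0.294 FPKM). PITX1 (5.37 ± 0.352 against 97.6 ± 5.07 FPKM), TBX1 (0.463 ± 0.129 against 24.6 ± 2.90 FPKM) and TFAP2C (0.0840 ± 0.0913 against 11.3 ± 0.6045 FPKM) were higher in LNCaP:C4-2. Developmental factors other than HOX had 24 and 21 calls of 54 tested and 68 listed (44.4% and 38.9%).

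Imprinted genes and chromatin regulators were called in both directions. PEG10 and SGCE, neighbours on chromosome 7, were both high in 22Rv1, SGCE at 26.97 ± 1.79 against 0.0636 ± 0.0409 FPKM. GRB10, an adaptor that dampens insulin signalling, was at 11.2, 11.7 and 11.2 FPKM in 22Rv1 and 146, 154 and 156 FPKM in LNCaP:C4-2 and higher in LNCaP:C4-2. KDM6A, a histone demethylase, was at 5.00, 5.40 and 6.34 FPKM in 22Rv1 and 50.2, 53.5 and 57.85 FPKM in LNCaP:C4-2, higher in LNCaP:C4-2. HDAC9, a histone deacetylase of muscle and brain, was at 0.151 against 0.00108 FPKM and higher in 22Rv1. Of 39 chromatin genes tested, 7 and 4 were called (17.95% and 10.3%, against 32.1% and 27.2% of all genes). EZH2 was not called (17.4 ± 1.37 against 23.5 ± 1.40 FPKM). Of 25 imprinted genes tested, 9 and 12 were called.

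Genes that write, read and erase N6-methyladenosine were called in both directions, with 7 of 23 tested called higher in 22Rv1 and 4 higher in LNCaP:C4-2. Their shares were 30.4% and 17.4%, against 32.1% and 27.2% of all genes. ALKBH5, an eraser, was at 23.7, 25.4 and 20.4 FPKM in 22Rv1 and 103, 108 and 100.4 FPKM in LNCaP:C4-2 and higher in LNCaP:C4-2, and FTO, the other eraser, was at 14.9 ± 0.439 against 7.55 ± 0.6415 FPKM and higher in 22Rv1. IGF2BP1, an oncofetal reader, had 653, 560 and 501 counts in 22Rv1 and 0 counts in all 3 libraries of LNCaP:C4-2, and IGF2BP2 and IGF2BP3 were at 4.89 ± 0.5355 against 0.0418 ± 0.04035 FPKM and 7.93 ± 0.7935 against 3.14 ± 0.233 FPKM. Splicing regulators had 10 and 7 calls of 42 tested (23.8% and 16.7%), with MBNL2 higher in 22Rv1 (6.42 against 0.00389 FPKM). Ribosomal protein genes had 7 and 3 calls of 43 (16.3% and 6.98%). RPL39L, a germline form of a ribosomal protein, was at 0 counts in LNCaP:C4-2 and at 16.6 FPKM in 22Rv1. Of 13 proteins encoded by mitochondrial DNA, 2 were called higher in LNCaP:C4-2 (15.4%) and none in 22Rv1, with a median of −0.34. Of 24 long noncoding RNAs tested out of 34 listed, 10 and 9 were called (41.7% and 37.5%). PCAT14 was at 0 counts in LNCaP:C4-2 (1.34 FPKM in 22Rv1) and PCAT6 was higher in LNCaP:C4-2 (0.506 ± 0.288 against 6.05 ± 1.26 FPKM).

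The differences were also read by position. By chromosome the median difference was highest on chromosomes 3 (0.45), 4 (0.42), 12 (0.42) and 18 (0.39) and lowest on 21 (−0.48), 17 (−0.40) and 11 (−0.28) among the nuclear chromosomes, against 0.06 over all genes. On chromosome 12, 42.2% of 959 genes were called higher in 22Rv1 and 15.5% higher in LNCaP:C4-2. On chromosome 17, 18.8% and 39.9% of 1064 were. Whether these medians follow the lines' gains and losses of chromosomes was not tested, since no DNA copy number was analysed here.

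**Figure D4:**
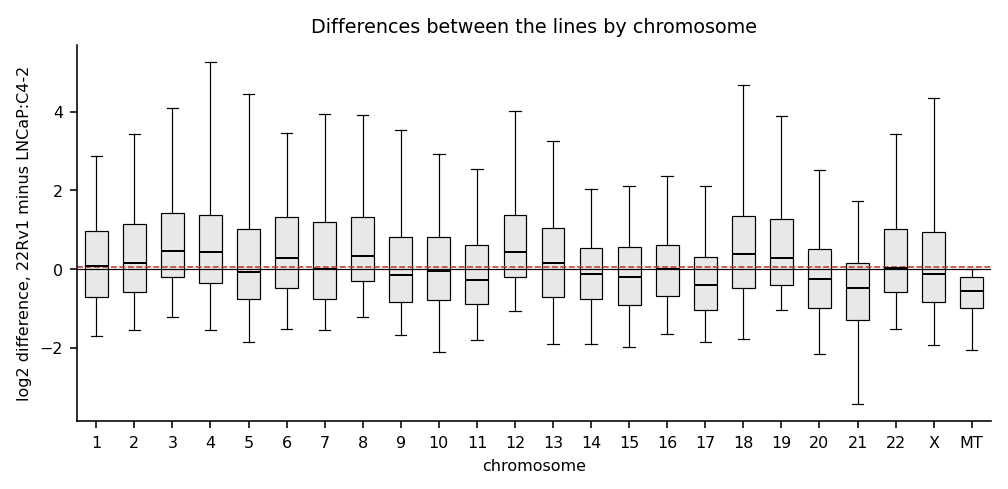
Boxes give the quartiles and median, and whiskers the 10th and 90th percentiles, of the log2 difference (22Rv1 minus LNCaP:C4-2) of the genes tested on each chromosome, with a red dashed line at the median over all genes (0.06). Chromosomes 3, 4 and 12 sit above it and 11, 17 and 21 below.

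Over windows of 25 neighbouring protein-coding genes, 95.7% of 13302 windows had a median between −1 and 1. None lay below −2 and 106 lay above 2. The most extreme window held the protocadherins of chromosome 5, adhesion proteins whose combinations label single neurons. From PCDHA1 to PCDHB10 (chr5:140786136-141195642, GRCh38) all 25 genes were called higher in 22Rv1, with a median of 7.84. Over the 3 clusters 46 of 50 genes tested were called higher in 22Rv1 and 2 higher in LNCaP:C4-2, at median levels of 0.464 and 0.0138 FPKM. Of the 50, 26 were found in 22Rv1 by the floor rule, passed the filter through that line alone and so had to be called. Such members enter the median of 7.84 from the floor. Set against it, PCDHA9 and PCDHA13, at 0 counts in LNCaP:C4-2, were at least 9.53-fold and 99.0-fold higher. Exons of the protocadherins are shared and alike, so single members are uncertain.

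Apart from windows that overlap this one, the highest median lay over zinc finger genes of chromosome 19 from ZNF85 to ZNF726 (chr19:20923222-23945159), with 23 of 25 called higher in 22Rv1 and a median of 3.78. Over that chromosome 151 of 234 genes named ZNF were called higher in 22Rv1 and 9 higher in LNCaP:C4-2, at medians of 2.77 and 1.38 FPKM. The floor rule found 15 of the 234 in 22Rv1, and these had to be called. A window on chromosome 7 from PHF14 to RAPGEF5 (chr7:10973872-22357144) had a median of 2.79. There 21 genes were called higher in 22Rv1 and 2 higher in LNCaP:C4-2. Further windows toward 22Rv1 lay around the HOXA cluster from HNRNPA2B1 to SCRN1 (chr7:26189927-29990289, 20 genes called, median 2.78) and on the short arm of chromosome 8 from TRMT9B to NPM2 (24 genes called, median 2.33). Toward LNCaP:C4-2 the windows were smaller in effect, with medians of −1.58 from CALML6 to LRRC47 on chromosome 1 (22 genes called), −1.43 from CSTB to SPATC1L on chromosome 21 (17 genes called) and −1.56 over histone genes from H3C1 to H2BC12 on chromosome 6 (16 genes called). Over all histone genes tested 23 of 35 were called higher in LNCaP:C4-2 and 2 higher in 22Rv1. Most histone mRNAs lack a poly(A) tail and near-identical copies share fragments, so their counts are uncertain.

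Genes that respond to androgen were then described at baseline. They were picked by the response to R1881 in the siMETTL3 libraries, and their values were read in the siSCR vehicle libraries. A gene can be called repressed in a line only where its vehicle level there is readable, a large induction is more easily reached from a low vehicle level, and the siMETTL3 vehicle libraries largely repeat the line difference of the siSCR ones. The choice of genes therefore favours a direction at baseline, and the values are a description from which nothing is read. Of 1629 genes repressed in 22Rv1, 934 were called higher in 22Rv1 (57.3%) and 406 higher in LNCaP:C4-2 (24.9%), with a median of 1.32. Among all 16425 genes tested in both fits the shares were 33.8% and 23.99%, with a median of 0.13. Of 803 genes repressed in LNCaP:C4-2, 47.2% were called higher there and 27.2% higher in 22Rv1, with a median of −0.44, against 31.3%, 23.2% and −0.11 for the 15101 genes tested in both fits.

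Induced genes are given in the same way. Of 631 induced in 22Rv1, 42.8% were called higher in 22Rv1 and 27.9% higher in LNCaP:C4-2, with a median of 0.29. Of 680 induced in LNCaP:C4-2, 32.9% and 39.9% were, with a median of −0.14. Of the 112 induced 4-fold or more in LNCaP:C4-2, 52.7% were called higher in 22Rv1 at baseline and 28.6% higher in LNCaP:C4-2, with a median of 0.94.

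**Figure D5:**
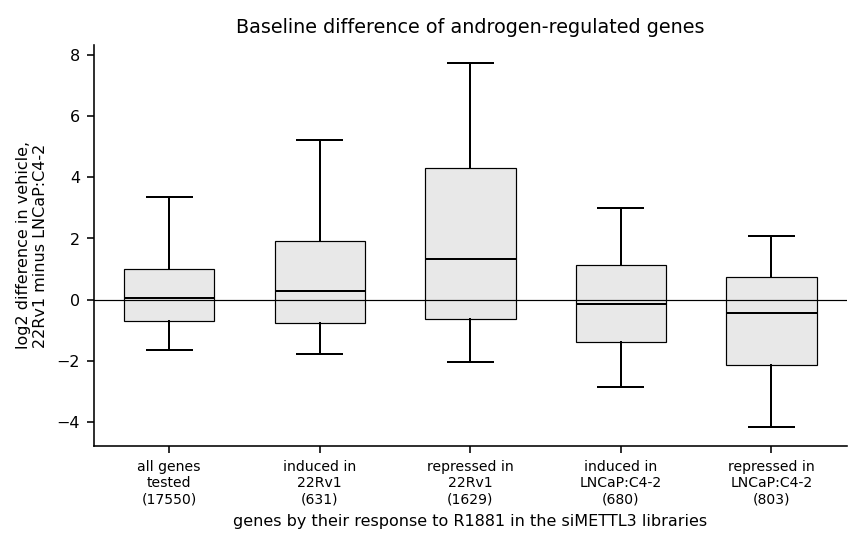
Boxes give the quartiles and median, and whiskers the 10th and 90th percentiles, of the baseline log2 difference (22Rv1 minus LNCaP:C4-2) for all genes tested and for genes that R1881 induced or repressed by 1.5-fold or more in the siMETTL3 libraries of a line, a choice that itself favours a direction. Genes repressed in 22Rv1 sit above 0 with a median of 1.32, and genes repressed in LNCaP:C4-2 below 0 with a median of −0.44.

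The differences between the lines were found again in libraries outside the comparison. Those libraries came from the same lines in the same experiment, so this is a description and no independent support. In the 6 siMETTL3 vehicle libraries 57.9% of 17550 genes tested were called, and 8921 of the 10410 genes called at baseline (85.7%) were called in the same direction and 5 in the opposite one. Of the 4080 called at 4-fold or more, 3854 were called in the same direction and none in the opposite one. In the siSCR R1881 libraries 60.5% of 17083 genes were called, and 8284 of the baseline calls (79.6%) had the same direction and 72 the opposite one. In the siMETTL3 R1881 libraries 61.4% of 17125 genes were called, 8263 of the baseline calls in the same direction and 81 in the opposite one. CHGB stayed apart in each condition. It had 0 counts in all 12 LNCaP:C4-2 libraries and between 233 and 2126 in the 12 of 22Rv1.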

How the data were processed

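RNA-seq libraries of 22Rv1 and LNCaP:C4-2 cells were compared after a non-targeting siRNA pool and ethanol vehicle, 3 per line, grouped by the sample labels. The deposited counts are raw fragments per gene. According to the methods and the file headers, the authors ran Trim Galore on the reads, used STAR for alignment to GRCh38 and made the counts with featureCounts 1.5.0 on Ensembl release 83. Counting was unstranded, so overlapping and antisense genes cannot be separated, and fragments that matched several places or genes were left out, which lowers the counts of near-identical copies.

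Of 60675 genes, 60129 remained without chromosome Y, and 56558 were given a symbol. Totals ran from 17060909 to 18894296 counts. At this depth a gene at 3 counts is at its floor. Genes were filtered with filterByExpr (minimum count 10, minimum total count 15), normalized by TMM and tested with edgeR 4.0.16 (quasi-likelihood, 4 residual degrees of freedom, two-sided, R 4.3.3) with Benjamini-Hochberg adjustment over the 17550 genes tested. FPKM were computed from counts and the exon length of the files. Ratios for lines with 1 to 3 counts carry exact 95% Poisson intervals, which cover counting error only.

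Counts were simulated from these 6 libraries for the 17550 genes, with a small set of genes changed, equally up and down. An adjusted p under 0.05, without the fold threshold, was reached by 55% of genes changed by 1.5-fold. It was reached by 69% of those changed by 1 on the log2 scale and 95% of those changed by 2. Of the genes that passed, 4.83% to 6.78% were unchanged. In the data 59.3% of genes were called, so these shares are not error rates of the calls here. Tables were handled in Python 3.11.15 and plotted with matplotlib 3.10.9. Promoters were searched in RefSeq sequences of GRCh38.p14, matched by symbol for 11227 of 13867 protein-coding genes tested.

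The comparison and its 43 gene lists were chosen with earlier results of these data known, and no set test was run. Named genes were members of the lists with large differences or that define the list, the 15 protein-coding genes per direction with the largest difference at 10 FPKM or more, and the 10 most abundant per line. VGF, the printed promoters, genes naming window borders and genes called in opposite directions with R1881 were taken outside that rule after their values were seen. Alternatives were DESeq2 1.42.0, other size factors, filters and thresholds, a replicate block, a fit on all 24 libraries and leaving out each library. R1881 and siMETTL3 libraries entered only where named. Some items are not reported here.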

Additional observations from a re-analysis of the deposited data

Results flagged for a closer look

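The line difference changed direction with androgen in a set of genes. With siSCR, 72 genes were called in opposite directions between the lines in vehicle and in R1881, 51 of them higher in 22Rv1 and 21 higher in LNCaP:C4-2 in vehicle. All 72 had an interaction of line and R1881 with an edgeR adjusted p under 0.05. The 72 were picked for this opposite sign, so their number is a description. Leading examples with at least 5 FPKM in a group are given with means ± SD of 3 libraries.

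NPPC, a natriuretic peptide, was at 1.01 ± 0.297 FPKM in 22Rv1 and 0.464 ± 0.102 in LNCaP:C4-2 in vehicle, and at 0.957 ± 0.370 and 66.5 ± 41.8 in R1881, an interaction of −7.23 on the log2 scale (SE 0.85, edgeR adjusted p = 1.15e-05). The 3 LNCaP:C4-2 libraries with R1881 spread widely for this gene, and its call in vehicle (log2 1.14) was lost without 22Rv1 replicate 1 (0.87) or LNCaP:C4-2 replicate 2 (0.95). KLK2, a kallikrein close to KLK3, was at 4.97 ± 0.496 against 2.46 ± 0.514 FPKM in vehicle and 5.03 ± 0.409 against 39.2 ± 0.629 in R1881, an interaction of −3.98 (SE 0.17). RHOU, an atypical small GTPase, was at 29.04 ± 1.30 against 6.48 ± 0.253 FPKM in vehicle and 30.6 ± 1.71 against 94.98 ± 3.66 in R1881 (interaction −3.80, SE 0.11).

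NR2F1, an orphan nuclear receptor, turned the other way, from 11.1 ± 0.136 against 23.4 ± 2.31 FPKM in vehicle to 7.64 ± 0.358 against 1.69 ± 0.222 in R1881 (interaction 3.25, SE 0.15). CDYL2 had an interaction of −2.94 and SAT1, which acetylates polyamines, of −2.87. In these genes the level in 22Rv1 moved little with R1881 and the level in LNCaP:C4-2 moved much, so that the order of the lines depended on whether androgen was present.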

How the results depend on the processing

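The number of genes called stayed within 1.5 times of 10410 under 16 alternatives, from 8662 when the test itself took the fold threshold and 8983 at a mean of at least 1 CPM to 11573 with DESeq2, 12811 with no filter and 13312 with no fold threshold. Leaving out each library gave 10554 to 10844. The count at 4-fold or more was 6267 with no filter on low counts, where genes with few counts enter. Genes found in 22Rv1 by the floor rule numbered 355 with 0 counts required in LNCaP:C4-2 and 328 with at least 5 CPM in 22Rv1, and those found in LNCaP:C4-2 numbered 78 and 46. With R1881 responses of 4-fold or more, the baseline medians were 1.32 (induced in 22Rv1), 3.88 (repressed in 22Rv1), 0.94 (induced in LNCaP:C4-2, where the sign turned) and −1.70 (repressed in LNCaP:C4-2). As in the report, choosing genes by their response favours a direction, and nothing is read from these values.

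Scaling by library size alone moved the median of all genes from 0.06 to 0.16 and the share of calls higher in 22Rv1 from 54.1% to 58.5%. It turned the sign of medians near 0, to 0.014 for the PI3K list, 0.0097 for the cell cycle, 0.0885 for integrins, collagens and laminins and 0.0758 for androgen-induced genes. Homologous recombination and damage checkpoint genes turned to 0.0769, chromosome 5 to 0.0232 and chromosome 10 to 0.0518. Chromosome 7 was at −0.115 when a mean of 10 CPM was required. Leaving out each library moved androgen-induced genes between −0.0697 and 0.0473, the integrin list between −0.0221 and 0.161 and the stromal, endothelial and blood markers between −1.07 and 0.0551. These markers turned without 22Rv1 replicate 3 (0.0551) and without LNCaP:C4-2 replicate 2 (0.0346), and the integrin list without 22Rv1 replicate 1 (0.161) and LNCaP:C4-2 replicates 2 and 3 (0.105 and 0.0566). Of 285 named genes tested, CTAG2 and KRT8, near 0 and not called, turned sign and ran between −0.013 and 0.133 and between −0.020 and 0.146 over the libraries left out. ID1 and TOP2A, not called, were called with library size alone (0.67 and 0.61) and without single libraries. The call of NPPC was lost with DESeq2, in the fit on all libraries and without 22Rv1 replicate 1 or LNCaP:C4-2 replicate 2.

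With a replicate block, 10415 genes were called. Deviations of libraries with the same number correlated at 0.144, 0.0713 and 0.271, and 5 of 6 libraries correlated best with their own number, a hint of pairing from the data. Not every pair exceeded 0.1, and different numbers correlated at up to 0.180, so the numbers were not taken as pairs. Replicates may be technical, 3 per line limit what can be called to larger differences, and 2 lines cannot speak for enzalutamide-sensitive and enzalutamide-resistant tumours in general.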
